A study of Homo sapiens with 28 samples.

Results

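The comparison described here was between LNCaP cells carrying a hairpin against p300 (shCtrl+shp300, 2 libraries) and LNCaP cells carrying a hairpin against CBP (shCtrl+shCBP, 2 libraries), 4 of the 28 libraries in the series. Its members were chosen by their treatment labels, and all 17678 of 26443 genes that reached 0.1 FPKM in at least 2 of the 16 knockdown libraries were tested. LNCaP is a human prostate cancer line that came from a lymph node metastasis and depends on androgen signalling. Cells were grown in RPMI1640 with fetal bovine serum, and every group used carried a hairpin vector. The shCtrl group carried the pGIPZ control vector, and the shp300 and shCBP hairpins, 1 sequence for each target, were delivered in pLKO.1 in addition to it. Whether the shCtrl group also carried a pLKO.1 control is not given in the sources used here. Below, shp300 and shCBP stand for these groups in shCtrl cells, shp300/CBP for shCtrl cells with both hairpins, and shHOXB13 for cells in which the prostate homeobox factor HOXB13 was targeted, alone or with shp300 or shCBP (2 libraries per group). Another set of shCtrl cells received DMSO or 250 nM CCS1477, an inhibitor of the p300 and CBP bromodomains, for 48 hours (3 libraries each). With 1 hairpin per target, an effect of a hairpin outside its target cannot be told apart from the knockdown of that target.

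p300 (encoded by EP300) and CBP (encoded by CREBBP) are paralogous lysine acetyltransferases that are recruited to enhancers and promoters by sequence-specific factors and acetylate histones, including H3 lysine 27. Both serve as coactivators for p53 and interferon regulatory factors. They are often treated as a pair because their catalytic domains and bromodomains are closely related, and the direct comparison asks which transcripts differed when one rather than the other was depleted.

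Expression was measured by polyadenylated RNA sequencing and is given in FPKM, fragments scaled to gene length and to the mapped reads of the library, which compares levels per gene length. Recovered totals were 10801468 and 10097424 mapped reads for shp300 and 11178785 and 13382729 for shCBP, of which 71.65% and 70.34%, and 64.7% and 70.9%, lay in genes. The share in genes was thus lowest in shCBP replicate 1, and FPKM divides by all mapped reads. Replicate pairs of the knockdown series correlated at r = 0.9508 to 0.9793 across genes on the log2 scale, and no pair was as close as counting error alone would make it. Differences are on the log2(FPKM + 0.1) scale, which understates changes of genes with low values. A gene was called when limma's moderated test, fitted over the 16 knockdown libraries in 8 groups, gave a Benjamini-Hochberg adjusted p under 0.05 and the difference reached 1.5-fold. The libraries of a group are biological duplicates according to the methods of the study. The p-values rest on the spread between such duplicates. The cells matched their label. The 13 luminal prostate markers summed to 1870 to 1920 FPKM with shp300, 2180 to 2610 with shCBP and 2480 to 2630 in shCtrl, whereas the 8 basal markers summed to at most 5.49 FPKM and TP63 was at 0 in all 6 libraries. The 12 neuroendocrine markers summed to 13.2 to 14.1 FPKM with shp300, 11.4 to 11.6 with shCBP and 9.65 to 11.1 in shCtrl. Fibroblast, immune and endothelial marker lists summed to at most 3.55, 6.06 and 0.624 FPKM. COL1A2, DCN, PTPRC, CD3E, PECAM1 and CDH5 were at 0 in all 6 libraries. In bulk RNA, a change in every cell cannot be told apart from a larger change in some cells.

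Each hairpin lowered its own target. EP300 (GENCODE 44 on GRCh38, chr22:41092592-41180077, + strand, protein coding) measured 4.34 and 4.87 FPKM with shp300, 11 and 10.7 with shCBP, 11.5 and 10.5 in shCtrl and 5.0 and 6.78 with both hairpins. The shp300 libraries were the lowest of the 8 control-cell libraries, and the shCBP libraries lay within 1 FPKM of the shCtrl range. The difference between shp300 and shCBP was -1.22 (SE 0.15, adjusted p = 0.000755), or 2.33-fold lower with shp300. CREBBP (chr16:3725054-3880713, - strand) measured 8.63 and 8.92 FPKM with shp300, 3.36 and 2.96 with shCBP, 6.44 and 5.96 in shCtrl and 4.0 and 4.72 with both hairpins. Both shCBP libraries were below all others, and both shp300 libraries were above the shCtrl libraries. CREBBP was 2.73-fold higher with shp300 than with shCBP, a difference of 1.45 (SE 0.16, adjusted p = 0.000318). Against shCtrl, CREBBP with shp300 differed by 0.49 (adjusted p = 0.117), which did not pass the test, and EP300 with shCBP by -0.02 (adjusted p = 0.98). Transcript was therefore still present for both targets, at mean levels of 4.61 ± 0.374 FPKM for EP300 with shp300 and 3.16 ± 0.282 FPKM for CREBBP with shCBP (SD, n = 2). Among the 19 acetyltransferase genes listed, ATF2 was the only other call, at 7.38 and 7.67 FPKM with shp300 and 4.81 and 5.07 FPKM with shCBP. That call was lost with a pseudocount of 1, under both other scalings given below, with a constant prior and under limma-voom. KAT2B, which encodes PCAF, measured 1.69 and 2.36 FPKM with shp300 against 3.08 and 3.31 with shCBP and missed the threshold (adjusted p = 0.0516). For these genes, leaving out any 1 of the 4 libraries ended the call of ATF2, with adjusted p up to 0.196.

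**Figure D1:**
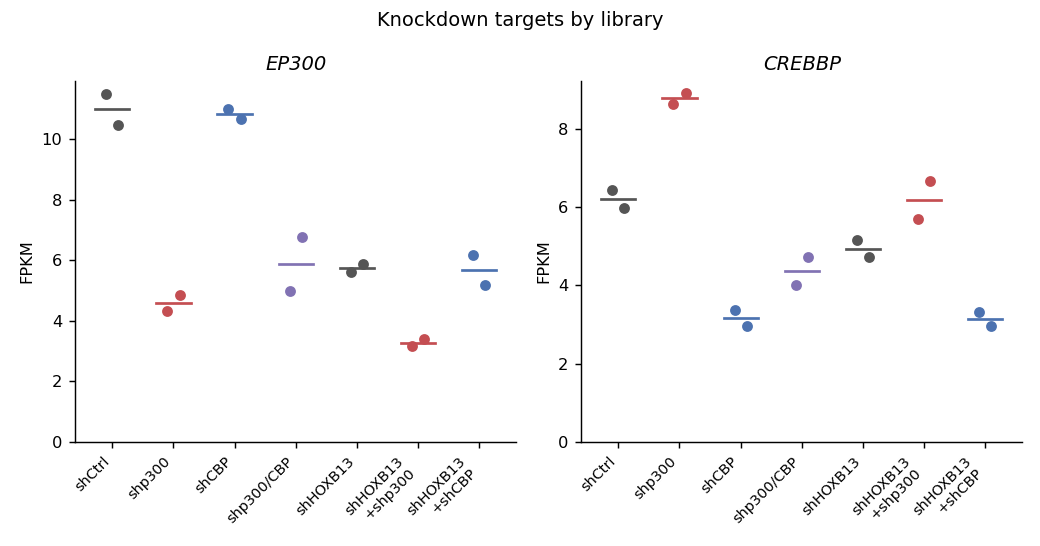
EP300 (left) and CREBBP (right) in FPKM by library in control cells and, at the right of each panel, in shHOXB13 cells. Points are the 2 libraries of a group and horizontal lines are their means. EP300 was lowest with shp300 and CREBBP lowest with shCBP in both cell backgrounds.

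A total of 1187 genes (6.71% of those tested) were higher with shp300 than with shCBP and 782 (4.42%) were lower. Of these, 432 and 330 differed by at least 2-fold, and 70 and 51 by at least 4-fold. For every called gene the 2 shp300 libraries lay outside the range of the 2 shCBP libraries, and this also held for 34.8% of all tested genes in the higher and 21.9% in the lower direction. The median difference over all genes was 0.07. Without the fold requirement the counts were 1408 and 916. Of the called entries, 29 higher and 19 lower were LOC or small RNA entries, which were not named individually. The balance of directions depended on the scaling. On the deposited FPKM, 60.3% of calls were higher with shp300. The share was 50.2% after scaling the libraries to equal summed FPKM (1003 higher and 996 lower). After median-of-ratios scaling it was 45.2% (909 and 1103). The median-of-ratios factors shift log2 differences of FPKM by -0.10, and by less in low-level genes, where the pseudocount weighs more. None of the 1187 and 782 genes was called in the opposite direction under either scaling. When shCBP replicate 1 was left out, 372 and 350 genes were called, among them 29.7% of the higher and 42.6% of the lower genes above. Without shp300 replicate 1 the counts were 457 and 439, without shp300 replicate 2 they were 500 and 339, and without shCBP replicate 2 they were 1065 and 505. A fit to the 4 libraries alone had 2 residual degrees of freedom and called 0 genes by limma (2951 higher and 1878 lower at an unadjusted p under 0.05, smallest adjusted p 0.065), while limma-voom on the recovered reads of all 16 libraries called 1309 and 1164. In such fits the lone library of a group is assumed to vary like the other groups. Of the 167 called genes among the 247 with individual values, 63 kept their call whichever of the 4 libraries was left out. Side by side, and sharing libraries with the comparison above, shp300 against shCtrl gave 177 higher (1.00%) and 369 lower genes (2.09%), and shCBP against shCtrl gave 600 higher (3.39%) and 1179 lower genes (6.67%). Both hairpins together against shCtrl gave 1343 higher (7.60%) and 1394 lower genes (7.89%).

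**Figure D2:**
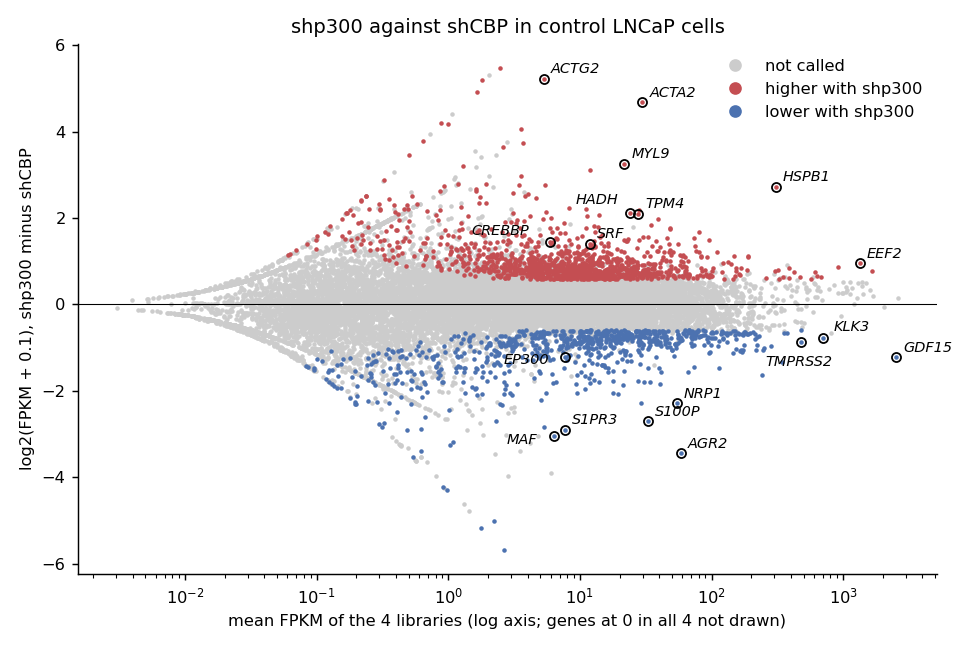
Difference between shp300 and shCBP in control cells, in log2(FPKM + 0.1), against the mean FPKM of the 4 libraries on a log axis. Each point is a gene, red where called higher with shp300, blue where called lower and grey where not called. The 1187 red and 782 blue genes cover a wide range of expression. ACTG2, ACTA2, MYL9, AGR2, MAF and S1PR3 are among the largest differences, and the called points beyond ACTG2 and AGR2 are small RNA entries.

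Among the 12 largest differences in the higher direction, 5 were in actin or myosin light chain genes (ACTG2, ACTA2, MYL7, ACTA1 and MYL9). ACTA2 (smooth muscle alpha-actin, chr10:88935074-88991339, - strand) measured 58.4 and 56.1 FPKM with shp300, 1.98 and 2.30 with shCBP, 10.6 and 9.52 in shCtrl and 19.8 and 12.5 with both hairpins. The shCtrl libraries lay between the knockdown groups, so that ACTA2 was above shCtrl with shp300 and below it with shCBP, both of which passed the test. The difference between shp300 and shCBP was 4.68 (SE 0.34, adjusted p = 4.35e-05), or 25.6-fold. ACTG2 (smooth muscle gamma-actin, chr2:73892314-73919865, + strand) measured 11.1 and 9.75 FPKM with shp300 and 0.403 and 0.0561 FPKM with shCBP, beside 1.52 and 1.16 in shCtrl, a difference of 5.22 (SE 0.57, adjusted p = 0.000318). ACTA1 (skeletal muscle alpha-actin) measured 4.47 and 5.31 FPKM with shp300 and 0.540 and 0.150 FPKM with shCBP. MYL9 (a myosin regulatory light chain, chr20:36541497-36551447, + strand) measured 35.3 and 43.7 FPKM with shp300 and 4.11 and 3.93 FPKM with shCBP, beside 12.5 and 10.1 in shCtrl and 41.7 and 30.5 with both hairpins, so that the cells with both hairpins were near those with shp300. MYL7, an atrial myosin light chain, measured 2.02 and 1.49 FPKM with shp300 and 0 and 0 FPKM with shCBP. TPM4 (a tropomyosin) was 4.30-fold higher, at 44.1 and 45.8 FPKM with shp300 and 9.35 and 11.5 FPKM with shCBP, and CNN2 (a calponin) was 2.75-fold higher, at 16.2 and 21.4 FPKM with shp300 and 6.71 and 6.75 FPKM with shCBP. Of the 20 tested actin, myosin light chain, transgelin, calponin and tropomyosin genes, a group chosen after the leading genes were seen, 8 were called higher and 0 lower, with a median difference of 0.45 against 0.07 over all genes. The shares over all genes were 6.71% higher and 4.42% lower. The cytoplasmic actins ACTB and ACTG1 differed by 0.64 and 0.49 and did not pass the test, TAGLN by -0.38 and TPM1 by -0.06. SRF, the serum response factor, was also higher, at 16.4 and 18.3 FPKM with shp300 and 6.35 and 6.60 FPKM with shCBP against 10.7 and 10.6 in shCtrl, a difference of 1.41 (SE 0.18, adjusted p = 0.000802). FLNA (filamin A) measured 117 and 113 FPKM with shp300 and 54.7 and 51 FPKM with shCBP, and EGR1, an immediate early transcription factor, 0.856 and 0.821 FPKM with shp300 and 0.171 and 0.214 FPKM with shCBP. SRF, FLNA, HSPB1 and HSPB8 were chosen after their values were seen. HSPB1, the small heat shock protein HSP27 (chr7:76302673-76304295, + strand), measured 520.2 and 550.4 FPKM with shp300 and 80.3 and 81.1 FPKM with shCBP and 309 and 381 in shCtrl, a difference of 2.73 (SE 0.62, adjusted p = 0.0139), whereas HSPB8 was lower, at 1.29 and 0.989 FPKM with shp300 and 4.33 and 4.07 FPKM with shCBP. In this group, leaving out any 1 of the 4 libraries ended the call of CNN2, HSPB1, HSPB8 and MYL6B, shCtrl+shp300 replicate 1 those of FLNA and EGR1, shCtrl+shp300 replicate 2 that of FLNA and shCtrl+shCBP replicate 1 those of FLNA and EGR1, with adjusted p up to 0.19.

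Serum response factor binds a motif named the CArG box. Stretches around such boxes are shown for the called genes ACTG2, ACTA1, MYL7, TPM4, CNN2 and EGR1. The promoter windows of SRF, FLNA and HSPB8 are not reported here. In the RefSeq promoter windows (GRCh38.p14), 250 bases before the start were searched on the plus strand of each gene, which covers both strands because the motif is its own reverse complement, and 407 of 35116 windows (1.16%) held a match. Capitals mark the CArG boxes in the stretches below, each with 20 bases on either side, written 5′ to 3′ on the strand of the gene.
ACTG2: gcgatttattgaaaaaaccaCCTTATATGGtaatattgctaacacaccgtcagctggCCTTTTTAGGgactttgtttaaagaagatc
ACTA1: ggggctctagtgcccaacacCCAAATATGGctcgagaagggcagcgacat
MYL7: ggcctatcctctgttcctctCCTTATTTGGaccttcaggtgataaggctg
TPM4: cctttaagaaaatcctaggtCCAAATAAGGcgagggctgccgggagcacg
CNN2: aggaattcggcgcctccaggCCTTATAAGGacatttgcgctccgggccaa
EGR1: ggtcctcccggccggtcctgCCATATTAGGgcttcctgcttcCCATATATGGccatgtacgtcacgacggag
The ACTG2 stretch lies at chr2:73892878-73892964, + strand, with boxes beginning 110 and 73 bases before the start. Starts are those of the RefSeq promoter entries, and for ACTG2 this start lies inside the GENCODE span given above. The ACTA1 stretch lies at chr1:229434162-229434211, - strand (97 bases before the start), MYL7 at chr7:44141364-44141413, - strand (61 bases), TPM4 at chr19:16067345-16067394, + strand (173 bases), CNN2 at chr19:1026499-1026548, + strand (89 bases) and EGR1 at chr5:138465354-138465425, + strand (105 and 83 bases). ACTG1, which was not called, also held a box, and its stretch is not shown. The windows of the called genes ACTA2 and MYL6B held no match, which says only that these letters are not in the windows searched, and MYL9 has no promoter entry. Among other genes searched, HSPB1, ITGA1, AGR2, S100P, S1PR3 and MAF had an entry and no match, and FHL2, a called gene chosen after its values were seen, held matches. The genes searched were picked for their differences, so these matches are a description of the windows and carry no comparison with other promoters. Only 11971 of the 17678 tested genes matched a promoter entry by symbol, too few for shares over all called genes, so none are given.

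**Figure D3:**
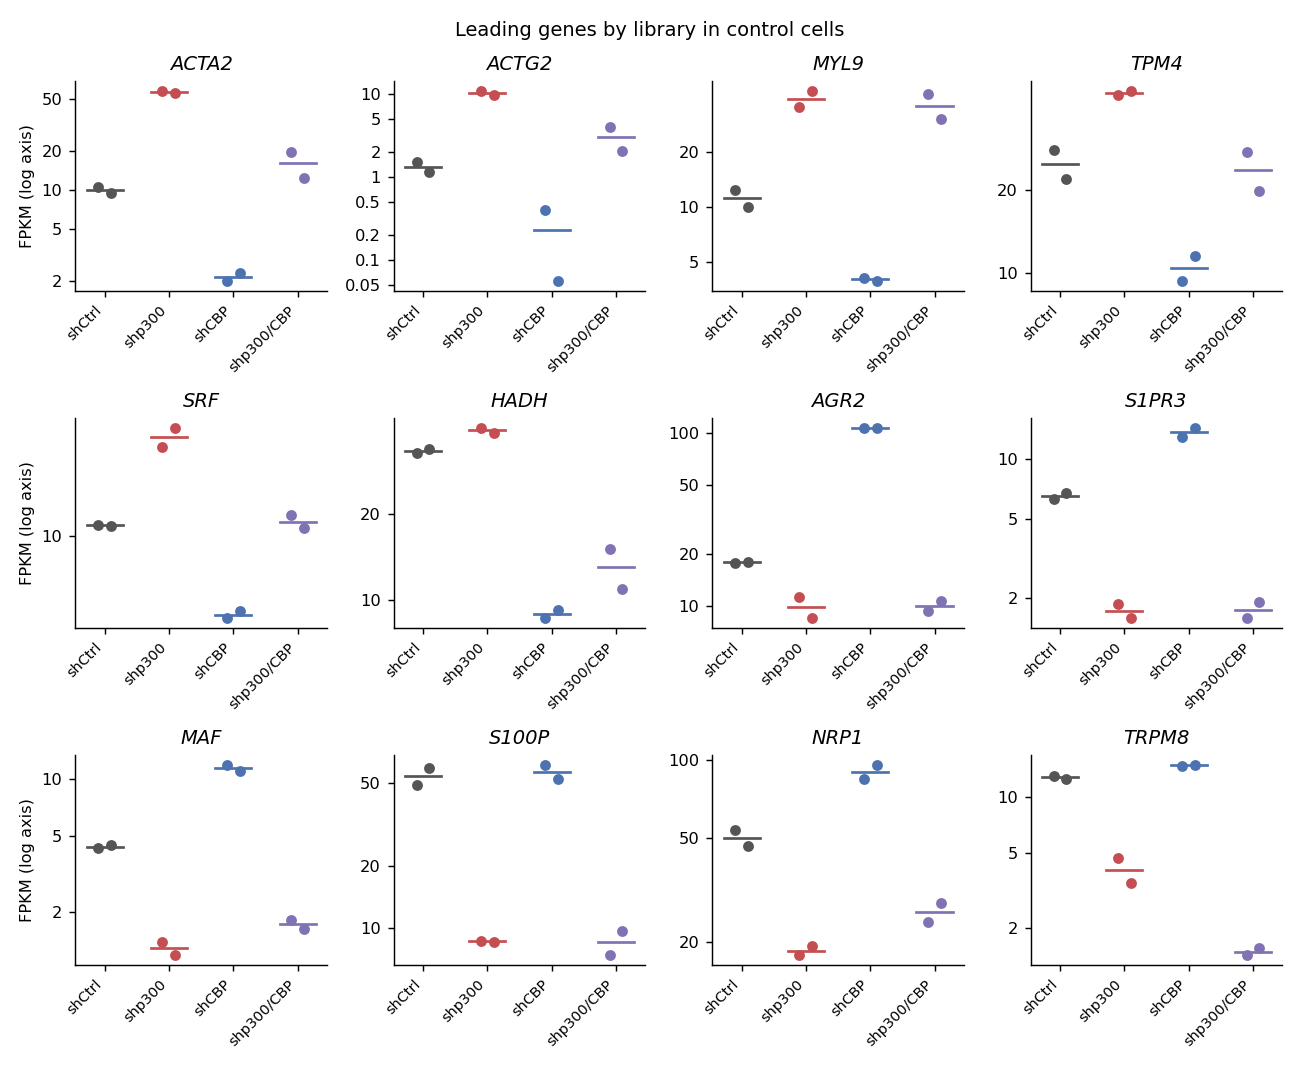
FPKM on a log axis of 12 genes by library in control cells. Points are the 2 libraries of a group and horizontal lines their means. ACTA2, ACTG2, MYL9, TPM4 and SRF had their highest mean with shp300 and their lowest with shCBP, HADH was lowest with shCBP, AGR2, S1PR3, MAF and NRP1 were highest with shCBP, and S100P and TRPM8 were low with shp300 and with both hairpins.

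Further leading genes that were higher with shp300 served adhesion, metabolism and signalling. ITGA1, the integrin alpha-1 subunit that binds collagen, measured 3.09 and 1.76 FPKM with shp300 and 0.131 and 0.203 FPKM with shCBP and 0.181 and 0.245 in shCtrl, and both shp300 libraries lay above all 4 of these. MMP10, a secreted matrix metalloproteinase, measured 6.89 and 3.94 FPKM with shp300 and 0.814 and 0.765 FPKM with shCBP and 0.329 and 0.543 in shCtrl, with both shCBP libraries above shCtrl (difference 2.58, SE 0.27, adjusted p = 0.000268). In contrast, HADH, a mitochondrial enzyme of fatty acid beta-oxidation, was close to shCtrl (32.7 and 33.8) with shp300 and low with shCBP, at 39.9 and 38.2 FPKM with shp300 and 8.67 and 9.26 FPKM with shCBP (difference 2.11, SE 0.23, adjusted p = 0.000318). BMX, a TEC family tyrosine kinase, measured 3.52 and 3.39 FPKM with shp300 and 0.300 and 0.557 FPKM with shCBP, and the imprinted zinc finger gene PEG3 7.18 and 5.69 FPKM with shp300 and 0.674 and 0.778 FPKM with shCBP with 2.09 and 1.74 in shCtrl. DIO3, the deiodinase that inactivates thyroid hormone, measured 28.1 and 14.7 FPKM with shp300 and 2.38 and 2.17 FPKM with shCBP with a wide spread between the shp300 libraries. The prostate-enriched olfactory receptors OR51E1 and OR51E2, chosen after their values were seen, had shp300 values near shCtrl and lower shCBP values. OR51E1 measured 9.04 and 6.86 FPKM with shp300 and 1.15 and 1.56 FPKM with shCBP beside 6.16 and 5.18 in shCtrl, and OR51E2 13.4 and 13.7 FPKM with shp300 and 2.12 and 3.65 FPKM with shCBP beside 13.6 and 15.4. SI (sucrase-isomaltase) and GLYATL3 (a glycine acyltransferase family member) were low-level genes, at 2.80 and 1.48 and 1.22 and 1.35 FPKM with shp300. GLYATL3 had no reads in either shCBP library, so the size of its difference is not given. HIST1H2AE measured 5.42 and 8.25 FPKM with shp300 and 0.159 and 0.530 FPKM with shCBP, and 4.11 and 6.77 in shCtrl. Histone transcripts mostly lack a poly(A) tail and are captured incompletely by this protocol, and members of the family are near-identical, so their values are less certain. Of the 14 histone genes listed, 5 were called higher (HIST2H2BE, HIST1H1C, HIST1H2BD, H2AFX and H2AFZ) and 0 lower, with a median of 0.37. These are 35.7% and 0% of the list, against 6.71% and 4.42% of all genes. H2AFZ, whose transcript is polyadenylated, measured 263 and 252 FPKM with shp300 and 104 and 136 FPKM with shCBP and 243 and 234 in shCtrl. Here, leaving out shCtrl+shp300 replicate 1 ended the call of H2AFZ, shCtrl+shp300 replicate 2 that of H2AFZ and shCtrl+shCBP replicate 1 that of H2AFZ, with adjusted p up to 0.117.

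Several of the most abundant called genes encoded the translation machinery, and all of these were higher with shp300. EEF2, the elongation factor that translocates the ribosome, measured 1726 and 1806 FPKM with shp300 and 834 and 985 FPKM with shCBP, beside 1722 and 1766 in shCtrl (difference 0.96, SE 0.18, adjusted p = 0.00553). RPL35 measured 1094 and 1246 FPKM with shp300 and 579.7 and 714 FPKM with shCBP, RPS13 745 and 784 FPKM with shp300 and 426 and 478 FPKM with shCBP and RPS6 1959.8 and 2204 FPKM with shp300 and 1083 and 1358 FPKM with shCBP. In each of these genes both shp300 libraries lay above both shCBP libraries. RPS4X and RPL11 were also called, at differences of 0.66 and 0.63. Across 88 cytoplasmic ribosomal protein genes, a group added after these values were seen, 12 were called higher, 1 was called lower and 78 had a difference above 0, with a median of 0.39. Over all tested genes 6.71% were higher, 4.42% lower and 55.6% above 0, with a median of 0.07. Against shCtrl the median of the ribosomal protein genes was -0.06 with shp300 and -0.39 with shCBP. Among 20 ribosome biogenesis genes 3 were higher (15%) and 0 lower, namely FBL, the nucleolar methyltransferase fibrillarin, at 85.7 and 91 FPKM with shp300 and 42.5 and 45.9 FPKM with shCBP, NPM1 and PES1. The biogenesis list kept a median above 0 (0.22) after median-of-ratios scaling, whereas the calls of RPL11 and RPS4X were lost after median-of-ratios and equal-sum scaling. The share of reads in genes, given above, was lowest in shCBP replicate 1, and its part in these differences was not tested. As for single libraries, leaving out any 1 of the 4 libraries ended the call of RPS6 and RPL11, shCtrl+shp300 replicate 1 those of RPS13, RPS4X, NPM1 and PES1, shCtrl+shp300 replicate 2 those of RPL35, RPS13, RPS4X, NPM1 and PES1 and shCtrl+shCBP replicate 1 those of EEF2, RPL35, RPS13, RPS4X, NPM1 and PES1, with adjusted p up to 0.261. Among lists with 0 lower calls by limma, the histone, ribosome biogenesis, hypoxia and metallothionein lists also had 0 lower members at an unadjusted p under 0.05 and by limma-voom. The 12 reference genes listed had a median of 0.35, near the 0.39 of the ribosomal protein genes, with 0 higher and 1 lower (GUSB).

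Among named genes lower with shp300, AGR2 had the largest difference. AGR2 (chr7:16791811-16833433, - strand), a protein disulfide isomerase of secretory epithelia, measured 11.3 and 8.46 FPKM with shp300, 107 and 107 with shCBP, 17.8 and 18 in shCtrl and 9.26 and 10.6 with both hairpins. Both shCBP libraries thus lay far above all others, and the cells with both hairpins were near those with shp300. The difference was -3.44 (SE 0.17, adjusted p = 3.65e-06), or 10.8-fold lower with shp300. S1PR3 (a sphingosine 1-phosphate receptor, chr9:88990863-89005155, + strand) measured 1.88 and 1.60 FPKM with shp300 and 12.9 and 14.3 FPKM with shCBP, with 6.30 and 6.71 in shCtrl between them and 1.59 and 1.92 with both hairpins (difference -2.90, SE 0.17, adjusted p = 6.84e-06). MAF (a basic leucine zipper factor, chr16:79585843-79600737, - strand) had the same order, at 1.39 and 1.18 FPKM with shp300 and 11.8 and 10.9 FPKM with shCBP and 4.31 and 4.46 in shCtrl (difference -3.05, SE 0.22, adjusted p = 4.35e-05). NRP1, the neuropilin co-receptor for semaphorins and VEGF, measured 17.7 and 19.2 FPKM with shp300 and 84.9 and 96 FPKM with shCBP and 53.8 and 46.6 in shCtrl, and THBS1 (thrombospondin-1) 2.30 and 1.27 FPKM with shp300 and 8.06 and 8.54 FPKM with shCBP and 3.80 and 4.16 in shCtrl. For these genes, then, shCtrl lay between the knockdowns. S100P, a calcium-binding protein, followed another order, at 8.71 and 8.54 FPKM with shp300 and 61.4 and 52.6 FPKM with shCBP, 49.3 and 59.2 in shCtrl and 7.38 and 9.72 with both hairpins. Its shCBP and shCtrl libraries overlapped, and the groups carrying shp300 were low (difference -2.71, SE 0.22, adjusted p = 5.28e-05). GHR, the growth hormone receptor, measured 0.965 and 0.613 FPKM with shp300 and 3.76 and 4.89 FPKM with shCBP, and NNMT, which methylates nicotinamide, 0.176 and 0.314 FPKM with shp300 and 2.15 and 1.37 FPKM with shCBP. NTN4 (netrin-4) had shp300 values near shCtrl and higher shCBP values, at 0.743 and 0.384 FPKM with shp300 and 3.69 and 4.42 FPKM with shCBP and 0.621 and 0.488 in shCtrl. Low-level members of the leading set were MMP7, FABP6, NTNG2 and S100A9, all below 2 FPKM in the shp300 and in the shCBP libraries. NPPC measured 1.32 and 1.13 FPKM with shp300 and 11.5 and 7.46 FPKM with shCBP. NRP1 and THBS1 were chosen after their values were seen. Among these genes, leaving out shCtrl+shp300 replicate 1 ended the calls of NNMT and NPPC, shCtrl+shp300 replicate 2 those of MMP7, NPPC and S100A9, shCtrl+shCBP replicate 1 those of NNMT, MMP7, NPPC and S100A9 and shCtrl+shCBP replicate 2 those of MMP7 and S100A9, with adjusted p up to 0.254.

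The androgen-responsive genes held more members lower than higher with shp300. Of 31 members tested, 10 were called lower (32.3%, against 4.42% of all genes) and 1 higher, and the median was -0.15 against 0.07 over all genes. KLK3, which encodes prostate-specific antigen (chr19:50854915-50860764, + strand), measured 501 and 524 FPKM with shp300 and 771 and 1004 FPKM with shCBP, beside 1054 and 1243 in shCtrl and 555 and 505 with both hairpins. All 4 libraries carrying shp300 were below every library without it (difference -0.78, SE 0.21, adjusted p = 0.0329). KLK2, its paralog, measured 22.6 and 24.4 FPKM with shp300 and 34.5 and 52.7 FPKM with shCBP and 50.4 and 54.2 in shCtrl, and TRPM8, a cold-activated cation channel, 4.71 and 3.49 FPKM with shp300 and 14.6 and 14.7 FPKM with shCBP and 12.9 and 12.4 in shCtrl (difference -1.83, SE 0.19, adjusted p = 0.000282). ALDH1A3, which makes retinoic acid, had the same order at 19.7 and 22 FPKM with shp300 and 36.8 and 41.4 FPKM with shCBP and 40.2 and 36.5. In these 4 genes shCBP was closer to shCtrl than shp300 was. TMPRSS2, the membrane serine protease, differed in another way, at 368 and 311 FPKM with shp300 and 585 and 655 FPKM with shCBP with 342 and 347 in shCtrl, so that shCBP was the group standing apart, and SLC45A3 followed it at 94.8 and 92.8 FPKM with shp300 and 136 and 154 FPKM with shCBP and 85.4 and 109. PPAP2A, a lipid phosphatase, lay on both sides of shCtrl (95.9 and 98.8) at 61.4 and 60.0 FPKM with shp300 and 164 and 172 FPKM with shCBP. ABCC4, an efflux transporter, was the member called higher, at 94.4 and 64.7 FPKM with shp300 and 44.7 and 54.6 FPKM with shCBP. FKBP5, a further member chosen after its values were seen, differed by 0.03 (adjusted p = 0.973) and did not pass the test. HOXB13 (chr17:48724763-48728750, - strand) was higher with shp300, at 69.7 and 77.1 FPKM with shp300 and 43.2 and 51.5 FPKM with shCBP and 87.6 and 85.4 in shCtrl (difference 0.64, SE 0.17, adjusted p = 0.0286), and the luminal keratin KRT8 was too, at 103 and 109 FPKM with shp300 and 57.4 and 67.1 FPKM with shCBP. The call of HOXB13 was lost under both other scalings, with a constant prior and under limma-voom, and that of KLK3 with no filter on low values. Further, leaving out any 1 of the 4 libraries ended the call of KLK3, SLC45A3 and ELL2, shCtrl+shp300 replicate 1 those of KLK2, ABCC4, HOXB13 and KRT8, shCtrl+shp300 replicate 2 those of KLK2, TMPRSS2, HOXB13, KRT8 and SGK1, shCtrl+shCBP replicate 1 those of ABCC4, HOXB13, KRT8 and SGK1 and shCtrl+shCBP replicate 2 those of KLK2 and SGK1, with adjusted p up to 0.254.

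Genes of the steroid glucuronidation list, some of which inactivate androgens, were called in both directions. UGT2B17 measured 10.9 and 8.69 FPKM with shp300 and 2.09 and 2.61 FPKM with shCBP, with 4.63 and 4.44 in shCtrl and 11 and 9.65 with both hairpins (difference 2.01, SE 0.17, adjusted p = 5.30e-05), and UGT2B15 4.73 and 3.16 FPKM with shp300 and 1.01 and 1.27 FPKM with shCBP (difference 1.68, SE 0.23, adjusted p = 0.00102). Both were highest in the groups carrying shp300. UGT2B11 went the other way, at 6.40 and 4.17 FPKM with shp300 and 9.64 and 11.3 FPKM with shCBP, as did UGT1A1 at 0.157 and 0.126 FPKM with shp300 and 0.835 and 0.476 FPKM with shCBP. UGDH, which makes the UDP-glucuronate they use, measured 13.2 and 11.8 FPKM with shp300 and 4.98 and 7.22 FPKM with shCBP. In all, 3 of 10 members were higher (30%) and 2 lower (20%), against 6.71% and 4.42% of all genes. UGT2B15 and UGT2B17 are near-identical, and UGT1A transcripts share their last exons, so reads may be divided between members. Within the family, leaving out shCtrl+shp300 replicate 1 ended the call of UGDH, shCtrl+shp300 replicate 2 those of UGT2B11, UGT1A1 and UGDH, shCtrl+shCBP replicate 1 those of UGT2B11, UGT1A1 and UGDH and shCtrl+shCBP replicate 2 that of UGT2B11, with adjusted p up to 0.226.

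Lipid genes, the subject of the wider study, differed modestly, and several of their lists had shares of calls near the 6.71% higher and 4.42% lower over all genes. FASN, the fatty acid synthase, measured 151 and 149.7 FPKM with shp300 and 106 and 108 FPKM with shCBP, with 128 and 145 in shCtrl. The groups did not overlap and the difference of 0.49 (SE 0.12, adjusted p = 0.0252) passed the test but not the 1.5-fold requirement. SCD, the stearoyl-CoA desaturase, was called at 182 and 140.3 FPKM with shp300 and 74.4 and 90.6 FPKM with shCBP with 80.5 and 83.7 in shCtrl, as were the acyl-CoA synthetases ACSL1 (129.8 and 110.3 FPKM with shp300 and 76.3 and 73.9 FPKM with shCBP) and ACSS2 (12.8 and 14.7 FPKM with shp300 and 7.56 and 7.65 FPKM with shCBP). Thus 3 of 26 fatty acid synthesis genes were higher and 0 lower by limma, with a median of 0.15, while 7 were lower at an unadjusted p under 0.05 and limma-voom called 3 higher and 3 lower. Of 16 genes of the SREBP pathway, which senses sterols, 4 were higher and 2 lower. INSIG1, which retains the SREBP complex in the endoplasmic reticulum, measured 37.8 and 26.6 FPKM with shp300 and 12.8 and 19.1 FPKM with shCBP, and MYLIP and ABCG1 were also higher, whereas the lysosomal cholesterol transporters NPC1 and NPC2 were lower, NPC1 at 24.9 and 17.9 FPKM with shp300 and 59.7 and 56.9 FPKM with shCBP with 21.7 and 23.1 in shCtrl (difference -1.46, SE 0.19, adjusted p = 0.000755). In the cholesterol pathway (20 genes, 1 higher and 1 lower), HMGCS1 was lower at 4.86 and 5.02 FPKM with shp300 and 10.5 and 12.2 FPKM with shCBP and SQLE higher at 42.2 and 32 FPKM with shp300 and 19.9 and 24 FPKM with shCBP. SQLE passed narrowly (adjusted p = 0.0499), and its call was lost with no filter, under both other scalings, in the 8 control-cell libraries and with a constant prior. Triglyceride and lipid droplet genes were lower in 3 of 18 (DGAT1, AGPAT2 and PNPLA2) and higher in 0 by limma (4 and 2 at an unadjusted p under 0.05, and 4 and 0 by limma-voom), with a median of -0.19. Among 20 fatty acid oxidation genes HADH and PPARA were higher and 0 lower by limma (5 and 1 at an unadjusted p under 0.05, and 3 and 0 by limma-voom). The study named its fatty-acyl-CoA genes from their nearness to sites bound by HOXB13, HDAC3 and p300, so the list by itself gives no direction. Of the 43 tested, 4 were higher (9.3%) and 2 lower (4.65%), with a median of 0.01. The sign of that median changed under other scalings (-0.10 after median-of-ratios scaling). For the lipid genes, leaving out any 1 of the 4 libraries ended the call of ABCG1, NPC2, SQLE and PPARA, shCtrl+shp300 replicate 1 those of SCD, ACSL1, INSIG1, MYLIP, DGAT1 and PNPLA2, shCtrl+shp300 replicate 2 those of ACSS2, DGAT1 and AGPAT2, shCtrl+shCBP replicate 1 those of SCD, ACSL1, ACSS2, INSIG1, MYLIP, DGAT1, AGPAT2 and PNPLA2 and shCtrl+shCBP replicate 2 those of ACSL1 and AGPAT2, with adjusted p up to 0.282.

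Integrin and laminin genes held more members lower than higher with shp300 in the fit of all 16 libraries. Every lower call of this list depended on some single library, as given below. Of 18 integrin and laminin genes, 7 were lower (LAMA3, LAMA5, LAMB1, LAMB3, LAMC1, ITGB5 and ITGAV) and 2 higher (ITGA1 and ITGB1), with a median of -0.52. These are 38.9% and 11.1% of the list, against 4.42% and 6.71% of all genes. Against shCtrl, 7 of the 18 were higher with shCBP and 2 with shp300. LAMC1, the laminin gamma-1 chain, measured 88.1 and 58.9 FPKM with shp300 and 112 and 135 FPKM with shCBP with 58 and 54.1 in shCtrl, and LAMA5 18 and 19 FPKM with shp300 and 37.3 and 27 FPKM with shCBP with 13.8 and 16.7, so shCBP was the group standing apart. LAMB3 instead was low with shp300, at 0.309 and 0.220 FPKM with shp300 and 0.955 and 0.997 FPKM with shCBP with 0.918 and 0.980 in shCtrl. ITGB1, the common beta-1 subunit, measured 100.03 and 57.2 FPKM with shp300 and 25.3 and 46.3 FPKM with shCBP, with a wide spread in both groups. The list of matrix metalloproteinases and their inhibitors split 3 and 3 of 15. MMP10, MMP16 and the inhibitor TIMP3 were higher, and MMP7, MMP11 and MMP13 lower. MMP13, a collagenase, measured 0.749 and 0.510 FPKM with shp300 and 1.88 and 2.17 FPKM with shCBP. The fibronectin gene FN1 was lower at 36.1 and 30.4 FPKM with shp300 and 58.6 and 64.5 FPKM with shCBP with 69.7 and 61.1 in shCtrl, and CDH3 (P-cadherin) was also lower, the only calls among 13 epithelial-mesenchymal regulators and cadherins. TGFBR2, the type II TGF-beta receptor, measured 0.394 and 0.379 FPKM with shp300 and 1.08 and 1.57 FPKM with shCBP, and ID2, a BMP target, 2.65 and 2.25 FPKM with shp300 and 6.62 and 8.0 FPKM with shCBP with 8.55 and 7.70 in shCtrl. In the adhesion group, leaving out any 1 of the 4 libraries ended the call of LAMA3 and LAMB3, shCtrl+shp300 replicate 1 those of LAMB1, ITGB1, MMP16, TIMP3 and CDH3, shCtrl+shp300 replicate 2 those of LAMB1, LAMC1, ITGB5, ITGAV, TIMP3, MMP11 and FN1, shCtrl+shCBP replicate 1 those of LAMA5, ITGAV, ITGB1, MMP16, TIMP3, MMP11 and CDH3 and shCtrl+shCBP replicate 2 those of LAMB1, LAMC1, ITGAV, MMP11, FN1 and CDH3, with adjusted p up to 0.3.

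Chaperone, p53 and antigen presentation genes likewise held more lower than higher members in the fit of all 16 libraries, and interferon genes more higher members. For comparison, 6.71% of all tested genes were higher and 4.42% lower. Of 20 endoplasmic reticulum chaperone and unfolded protein response genes limma called 5 lower (25%) and 0 higher (median -0.40). CANX (calnexin) measured 60.4 and 60.6 FPKM with shp300 and 116 and 147 FPKM with shCBP with 113 and 106 in shCtrl (difference -1.11, SE 0.14, adjusted p = 0.000648), and HSPA5, the chaperone BiP, 164 and 139 FPKM with shp300 and 264 and 313 FPKM with shCBP with 179 and 168. CANX was thus low with shp300, and HSPA5 high with shCBP. DNAJB9, HERPUD1 and EDEM1 were the other calls. At an unadjusted p under 0.05 limma gave 9 lower and 0 higher members, and limma-voom called 7 lower and 0 higher. Of 23 p53 target genes 5 were lower (21.7%) and 0 higher by limma (10 and 3 at an unadjusted p under 0.05, and 8 and 0 by limma-voom), with a median of -0.34. ZMAT3, an RNA-binding protein, measured 2.98 and 2.80 FPKM with shp300 and 6.50 and 7.12 FPKM with shCBP with 7.64 and 6.51 in shCtrl, and TNFRSF10B, a TRAIL receptor, 31.9 and 31.6 FPKM with shp300 and 74.9 and 69.5 FPKM with shCBP with 51.4 and 56.9. GDF15, a secreted stress cytokine and among the most abundant transcripts, measured 1548 and 1497 FPKM with shp300 and 3789 and 3309 FPKM with shCBP with 1951 and 2618 in shCtrl (difference -1.22, SE 0.34, adjusted p = 0.0361). Of 16 MHC class I presentation genes 4 were lower (HLA-C, HLA-E, B2M and ERAP1, 25%) and 1, the peptide-loading protein TAPBP, higher, with a median of -0.53. Every lower call of this list depended on some single library, as given below. B2M, the invariant light chain, measured 111 and 90.3 FPKM with shp300 and 193 and 217 FPKM with shCBP with 145 and 153 in shCtrl. HLA genes share sequence, and their reads may be divided between members. Of 32 interferon response genes 5 were higher (DTX3L, HERC6, OASL, IFIT1 and DDX60, 15.6%) and 1, IRF7, lower (3.12%). HERC6, an ISG15 ligase family member, measured 5.59 and 4.86 FPKM with shp300 and 1.13 and 1.58 FPKM with shCBP with 3.93 and 3.32 in shCtrl. The guanylate-binding proteins, interferon-inducible GTPases chosen after their values were seen, were split: GBP2 measured 10.3 and 8.72 FPKM with shp300 and 1.30 and 1.32 FPKM with shCBP and GBP1 2.85 and 3.02 FPKM with shp300 and 0.411 and 0.588 FPKM with shCBP, while GBP3, GBP4 and GBP5 did not pass the test. In these lists, leaving out any 1 of the 4 libraries ended the call of HERPUD1, EDEM1, GDF15, HLA-C, B2M and DDX60, shCtrl+shp300 replicate 1 those of FDXR, ERAP1, OASL, IFIT1 and IRF7, shCtrl+shp300 replicate 2 those of HSPA5, DNAJB9, SESN1, HLA-E, ERAP1 and IRF7, shCtrl+shCBP replicate 1 those of HSPA5, HLA-E, IFIT1, IRF7 and GBP1 and shCtrl+shCBP replicate 2 those of HSPA5, DNAJB9, SESN1, ERAP1 and IFIT1, with adjusted p up to 0.233.

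Deacetylase genes were among the acetylation regulators higher with shp300. Of 21 partners, readers and erasers of acetylation 4 were higher (19%) and 1 lower (4.76%), including the deacetylase genes HDAC1 (79.8 and 81.4 FPKM with shp300 and 36.6 and 45.6 FPKM with shCBP), HDAC2 (17.8 and 18.9 FPKM with shp300 and 9.31 and 13.9 FPKM with shCBP) and HDAC3 (23.8 and 24.2 FPKM with shp300 and 13.6 and 14.8 FPKM with shCBP), and CITED2, which binds both p300 and CBP, was lower at 15.2 and 12.7 FPKM with shp300 and 20.5 and 26.2 FPKM with shCBP. CITED1, a related low-level gene, was the fourth higher member. The call of HDAC2 was lost with no filter on low values, after median-of-ratios scaling and in the 8 control-cell libraries. A constant prior or a block for replicate number also ended it. PSAT1 and PSPH, enzymes of serine synthesis, were higher at 252 and 267 FPKM with shp300 and 111 and 134 FPKM with shCBP and 33 and 34.4 FPKM with shp300 and 15.8 and 16.6 FPKM with shCBP, and the amino acid transporter chain SLC3A2 was lower, the only calls among 19 ATF4 targets. In oxidative phosphorylation UQCRC2 was higher and COX6C, COX5B and NDUFA4 lower of 20. In the remaining lists, beside the all-gene shares of 6.71% higher and 4.42% lower, limma called 2 higher and 2 lower of 14 in the Notch pathway (14.3% each), where NRARP measured 10.8 and 12.5 FPKM with shp300 and 4.81 and 4.96 FPKM with shCBP and JAG1, a Notch ligand, 9.94 and 7.71 FPKM with shp300 and 16.7 and 18.8 FPKM with shCBP. The counts were 1 higher and 1 lower of 12 Wnt genes (ZNRF3 and APC), 1 and 2 of 15 TGF-beta and BMP targets, 2 and 0 of 18 NF-kB genes (NFKB1 and REL), 2 and 0 of 19 cAMP and immediate early genes (EGR1 and IER2), 1 and 0 of 23 hypoxia genes (MXI1, 4.35%), 2 and 0 of 6 metallothionein genes (MT1F and MTF1, 33.3%), and 0 and 1 of 5 neuroendocrine markers (SCG3). Of these, leaving out any 1 of the 4 libraries ended the call of CITED2, SLC3A2, COX5B, NDUFA4, HES4, REL, MXI1 and MTF1, shCtrl+shp300 replicate 1 those of HDAC2, HDAC3, CITED1, UQCRC2, COX6C, MAML1, ZNRF3 and MT1F, shCtrl+shp300 replicate 2 those of HDAC1, HDAC2, HDAC3, CITED1, UQCRC2, JAG1, MAML1, NFKB1, IER2, MT1F and SCG3, shCtrl+shCBP replicate 1 those of HDAC1, HDAC2, HDAC3, UQCRC2, COX6C, JAG1, MAML1, ZNRF3, NFKB1, IER2, MT1F and SCG3 and shCtrl+shCBP replicate 2 those of CITED1, JAG1, ZNRF3, IER2 and SCG3, with adjusted p up to 0.353.

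**Figure D4:**
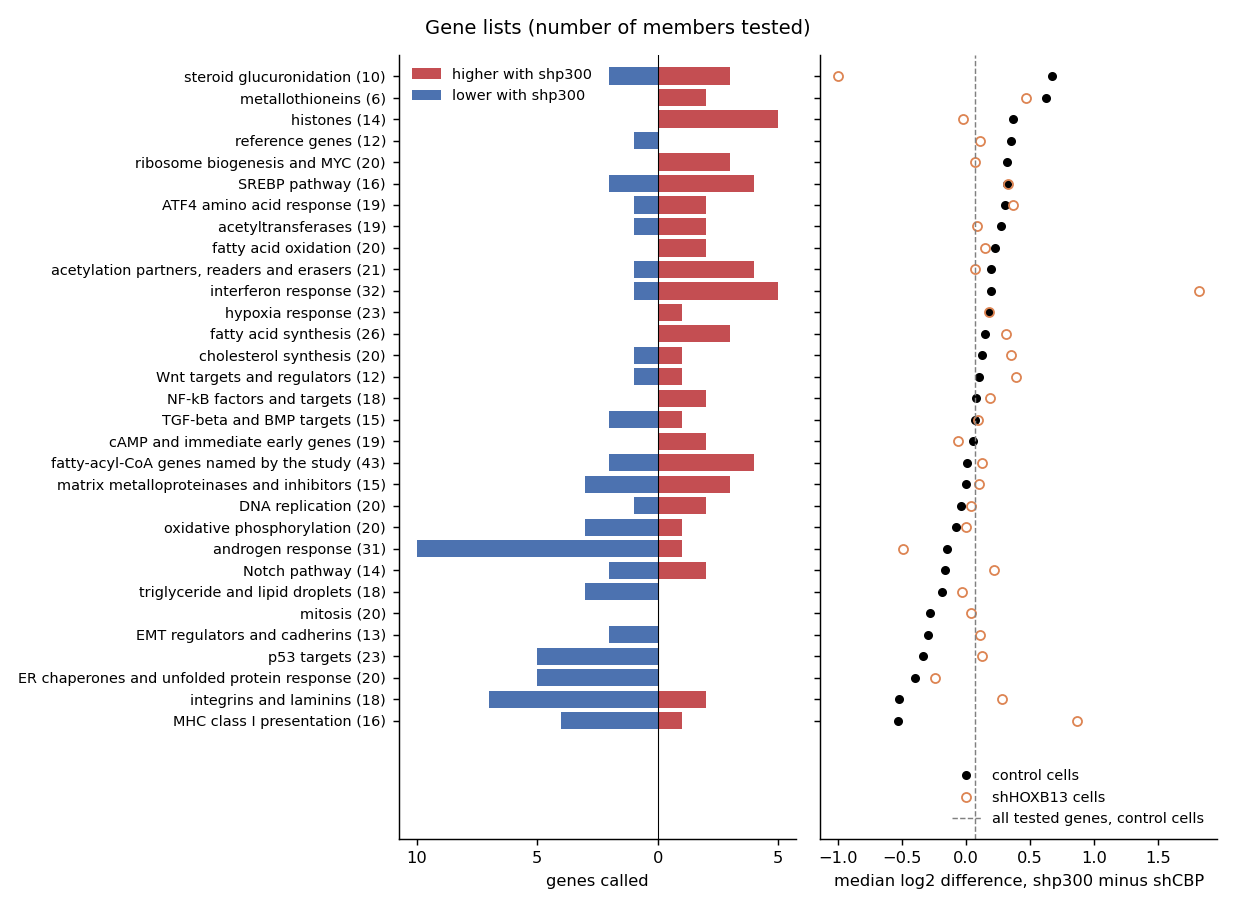
Gene lists ordered by their median difference in control cells, with the number of members tested in brackets. Bars on the left count members called higher (red, to the right) or lower (blue, to the left) with shp300 than with shCBP. On the right, filled points are list medians in control cells, open points those in shHOXB13 cells, and the dashed line the median over all tested genes in control cells (0.07). The androgen list had 10 lower members, and the interferon list had a median of 0.19 in control and 1.82 in shHOXB13 cells.

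Mitosis genes gave no call between the knockdowns. Of 20 genes 0 were called by limma in either direction (2 higher and 1 lower at an unadjusted p under 0.05), and the smallest adjusted p was 0.11 for CDK1, the mitotic kinase, at 1.73 and 1.73 FPKM with shp300 and 2.37 and 3.22 FPKM with shCBP. In shCtrl CDK1 measured 9.56 and 8.17 FPKM, above all 4 knockdown libraries. Against shCtrl, 12 of the 20 were lower with shp300 and 15 with shCBP, where the shares over all genes were 2.09% and 6.67%. Limma-voom called 1 of the 20 lower with shp300 than with shCBP. DNA replication genes (20 tested) had 2 higher (MCM2 and MCM6, 10%) and 1 lower (CCNE2, 5%) with shp300 than with shCBP. These shares were near the 6.71% higher and 4.42% lower over all genes. Of the same 20 genes, 8 were lower than shCtrl with shp300 and 10 with shCBP. MCM2, a subunit of the replicative helicase, measured 6.89 and 6.10 FPKM with shp300 and 1.99 and 4.13 FPKM with shCBP and 10.2 and 10.3 in shCtrl, whereas CCNE2 (cyclin E2) measured 1.43 and 1.56 FPKM with shp300 and 2.99 and 3.81 FPKM with shCBP and 4.38 and 3.45. A p that misses the threshold does not show equal levels. In the replication list, leaving out shCtrl+shp300 replicate 1 ended the calls of MCM2, MCM6 and CCNE2, shCtrl+shp300 replicate 2 those of MCM2 and MCM6, shCtrl+shCBP replicate 1 those of MCM2 and MCM6 and shCtrl+shCBP replicate 2 that of CCNE2, with adjusted p up to 0.246.

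The same contrast in shHOXB13 cells rested on 4 other libraries. There, 321 genes were higher (1.82%) and 122 lower (0.690%) with shp300 than with shCBP. Of the 1187 genes higher in control cells, 117 (9.86%) were also called higher in shHOXB13 cells, which is 36.4% of the 321, and 4 were called lower. Of the 782 lower genes, 42 (5.37%) were called lower there, 34.4% of the 122, and 10 were called higher. Differences in shHOXB13 cells were above 0 for 87.2% of the higher genes and below 0 for 66% of the lower genes, against 58.1% and 39.1% of all tested genes. ACTA2 measured 11.6 and 8.12 FPKM with shHOXB13+shp300 and 0.942 and 1.83 with shHOXB13+shCBP (difference 2.79, SE 0.34, adjusted p = 0.00136), and MYL9 21.5 and 21.4 against 3.92 and 5.98 (difference 2.12, SE 0.42, adjusted p = 0.0212). AGR2 measured 85.6 and 73.2 with shHOXB13+shp300 and 281 and 366 with shHOXB13+shCBP (difference -2.02, SE 0.17, adjusted p = 0.000291). These 3 genes therefore separated the 2 knockdowns in both backgrounds, with no overlap. EP300 and CREBBP also differed, by -0.77 (SE 0.15, adjusted p = 0.0239) and 0.95 (SE 0.16, adjusted p = 0.00916). EP300 measured 3.16 and 3.39 FPKM with shHOXB13+shp300, 6.17 and 5.19 with shHOXB13+shCBP and 5.62 and 5.88 in shHOXB13. The shHOXB13 libraries were thus below those of shCtrl (11.5 and 10.5), and the EP300 difference was 1.71-fold, against 2.33-fold in control cells. The part of this lower EP300 level in the differences between backgrounds was not tested.

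The size of the contrast differed between backgrounds for 288 genes, 87 with a higher (0.492%) and 201 with a lower (1.14%) value in control than in shHOXB13 cells, by the interaction term of the same fit. S1PR3 differed by -2.90 in control cells but measured 13.5 and 12 FPKM with shHOXB13+shp300 and 10.1 and 12.5 with shHOXB13+shCBP, where the libraries overlapped (interaction -3.08, SE 0.24, adjusted p = 0.000389). MAF, whose level was below 1 FPKM in all these shHOXB13 libraries, gave an interaction of -2.57 (SE 0.31, adjusted p = 0.00425). SDC1, a cell-surface proteoglycan, was called in opposite directions, at 16.1 and 17 FPKM with shp300 and 28.1 and 27.9 FPKM with shCBP in control cells and 33.4 and 32.2 with shp300 against 20.4 and 21.9 with shCBP in shHOXB13 cells (interaction -1.39, SE 0.16, adjusted p = 0.00275), as did PPAP2B, a lipid phosphatase, at 2.52 and 2.17 with shp300 and 1.18 and 1.37 with shCBP in shHOXB13 cells against 3.47 and 3.41 FPKM with shp300 and 7.68 and 8.52 FPKM with shCBP in control cells. UGT2B17 measured 34.5 and 28.5 with shp300 and 37.8 and 49.2 with shCBP in shHOXB13 cells (interaction 2.47, SE 0.23, adjusted p = 0.00134). The interactions of these genes and of LGALS3BP, LIPA, PEG3, MMP10, HLA-E and NRP1 stayed past the threshold with any 1 of the 8 libraries left out. These genes were named for their control-cell values or a small interaction p, a choice that can overstate their interactions. In the interferon response list, 26 of 32 genes were higher with shp300 than with shCBP in shHOXB13 cells (0 lower, median 1.82), against 5 in control cells, and 13 of the 32 passed the test of the difference. IFIT3, chosen with 3 other members after their values were seen, measured 23.5 and 26.5 FPKM with shHOXB13+shp300, 3.92 and 3.63 with shHOXB13+shCBP and 2.70 and 1.81 in shHOXB13, but 0.522 and 0.279 FPKM with shp300 and 0.504 and 0.711 FPKM with shCBP in control cells. BST2 (tetherin) measured 21.6 and 18.1, 1.71 and 2.34 and 2.20 and 0.825 in those shHOXB13 groups and at most 0.440 FPKM in the control-cell libraries with 1 hairpin or shCtrl. OAS1 and IFI6 measured 17.3 and 15.4, and 564 and 552 with shHOXB13+shp300, against 4.65 and 4.04, and 141 and 194 with shHOXB13+shCBP. The count of 13 varied with the libraries: it was 3 without shCtrl+shp300 replicate 2, shHOXB13+shp300 replicate 1 or shHOXB13+shCBP replicate 1, 4 without shCtrl+shCBP replicate 1 or 2, 6 without shCtrl+shp300 replicate 1 and 7 without shHOXB13+shp300 replicate 2. The count of 26 was 18 without shHOXB13+shCBP replicate 1, 19 and 21 without shHOXB13+shp300 replicate 1 and 2, and 24 without shHOXB13+shCBP replicate 2.

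**Figure D5:**
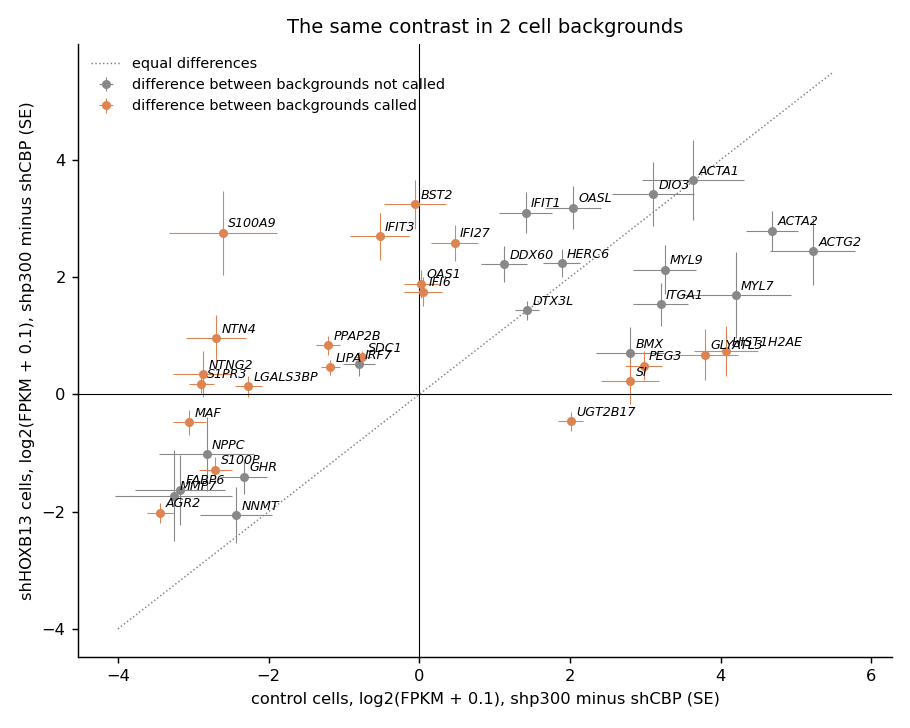
Difference between shp300 and shCBP, in log2(FPKM + 0.1), in control cells (horizontal) and shHOXB13 cells (vertical) for the leading and interferon genes. Bars are standard errors, orange marks genes whose difference between backgrounds was called, and the dotted line marks equal differences. ACTA2, ACTG2 and MYL9 lie in the upper right, AGR2 and S100P in the lower left, S1PR3 near 0 on the vertical axis, and BST2 and OAS1 near 0 on the horizontal axis.

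CCS1477, which targets both proteins at once, was measured in separate libraries, and 1047 of 15907 genes were higher (6.58%) and 884 lower (5.56%) than with DMSO in shCtrl cells. Among 1171 genes higher with shp300 than with shCBP and tested in that series, 81 were higher (6.92%) and 101 lower (8.63%) with CCS1477. Among 767 lower genes, 80 were higher (10.4%) and 100 lower (13%). Both directions of the response to the inhibitor thus occurred among the genes of either direction of the contrast, and no test of these shares was made. AGR2 and S100P, both low with shp300, were lower with CCS1477, at differences of -1.74 (adjusted p = 1.62e-06) and -3.21 (adjusted p = 6.23e-05), and KLK3 was too, at -0.71 (adjusted p = 0.00366). BMX and PEG3, both low with shCBP, were also lower, at -3.42 (adjusted p = 3.78e-05) and -1.17 (adjusted p = 0.0021). MYL9 was higher at 1.28 (adjusted p = 0.0166), while ACTA2 differed by 0.59 (adjusted p = 0.166) and did not pass the test.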

How the data were processed

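Polyadenylated RNA from LNCaP cells was sequenced in pairs of reads after NEBNext Ultra library preparation. The authors aligned reads to hg38 with STAR 2.6.0 and converted its unstranded gene counts to FPKM with an in-house script, scaled to mapped reads and gene length, and the deposited files hold these FPKM values per library. Without strand, overlapping and antisense genes cannot be told apart. Whole reads were recovered from the steps of the values (99.99% of 475360 values within 0.05 of a whole number) and used for the depths and for limma-voom only.

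Groups followed the sample labels. Genes with at least 0.1 FPKM in at least 2 of the 16 knockdown libraries (3 of 12 for the CCS1477 series) were kept, and log2(FPKM + 0.1) was fitted in limma 3.58.1 (R 4.3.3) with 1 mean per group and a prior variance that follows mean expression, and p-values were adjusted by Benjamini-Hochberg over all genes kept. A call needed an adjusted p under 0.05 and a 1.5-fold difference. The fit had 8 residual and 3.82 prior degrees of freedom per gene. Named genes were EP300, CREBBP, HOXB13, KLK3 and FASN, the 12 largest called differences in each direction with at least 1 FPKM in the higher group, the 8 most abundant called genes, up to 4 members of each list with the smallest p, the 6 smallest p for the difference between backgrounds among genes called in control cells, and called members of lists with 2 or more calls. Other genes are marked as chosen after their values were seen. The members and lists were chosen with earlier results of these data known. Libraries carry a replicate number in their labels, but same-numbered libraries did not deviate together (correlation -0.078 in control cells and -0.053 in shHOXB13 cells over 11705 genes), and the replicate number was not used as a block. Some members of the lists are counted but not reported individually here.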

Additional observations from a re-analysis of the deposited data

Results flagged for a closer look

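The contrast between shp300 and shCBP differed between control and shHOXB13 cells by limma's interaction term, with a higher value in control cells for 87 genes and a lower value for 201. Each value below is the log2 difference in control cells minus that in shHOXB13 cells. Among genes named above, it was lower in control cells for S1PR3 (-3.08), MAF (-2.57), LGALS3BP (-2.41), PPAP2B (-2.04), LIPA (-1.64) and SDC1 (-1.39), and higher for UGT2B17 (2.47) and PEG3 (2.49), all of which stayed past the threshold with any 1 of the 8 libraries left out. It was also lower for S100A9 (-5.37), NTN4 (-3.66), NTNG2 (-3.21), S100P (-1.42) and AGR2 (-1.42), and higher for SI (2.57), GLYATL3 (3.11) and HIST1H2AE (3.33), each of which lost its call with at least 4 of the 8 libraries left out in turn. S100A9, SI and GLYATL3 had libraries at 0, where the size of a fitted difference depends on the pseudocount. AGR2 and S100P were lower with shp300 in both backgrounds, so that their difference was one of size. The genes in this section were named for their control-cell differences or for a small interaction p. That choice can overstate the size of their interactions and how well they held.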

How the results depend on the processing

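With 2 libraries a group, single libraries decided many calls. Leaving out 1 library gave 372 to 1065 higher and 339 to 505 lower genes in control cells, with a median difference of 0.034 to 0.101, the lowest without shCtrl+shCBP replicate 1. The 4 libraries alone gave 0 and 0 calls, with 2 residual degrees of freedom. Counts stayed within 1.5 times under a pseudocount of 1, no filter, a filter at 1 FPKM, other scalings, a constant prior, the 8 control-cell libraries and limma-voom. The median was 0.037 with a pseudocount of 1, 0 with no filter or median-of-ratios scaling, 0.118 with the 1 FPKM filter and 0.007 with equal summed FPKM. No named gene that was called in the main fit or in an alternative changed sign between them. Sign changes of genes called in neither were not counted.

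Replicate numbers were shared between groups. A fit with the replicate block called 1093 higher and 720 lower genes and ended 10 of the 167 named calls, those of KLK3 and SQLE among them, while the interaction counts became 55 and 124.

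Alternatives for shHOXB13 cells were added after seeing the data. There, leaving out 1 library gave 72 to 333 higher and 41 to 73 lower genes, and median-of-ratios scaling gave 255 lower genes. The interaction counts of 87 and 201 became 16 to 68 and 34 to 297 with 1 library left out, 179 and 366 with median-of-ratios scaling, 142 and 481 with equal summed FPKM, and 201 and 492 with limma-voom, and a constant prior gave 126 lower. The cause of these changes was not tested.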
